A study of Mus musculus with 2 samples.

Results

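The KLF genes are a family of transcription factor genes, and 10 of them were described here: Klf2, Klf3, Klf4, Klf6, Klf7, Klf9, Klf10, Klf13, Klf15 and Klf16. They were found by gene symbol in a table of 15953 genes, where each had 1 row. The samples were mouse neural stem cells grown in suspension culture, with 1 library from cells of wild type genotype (WT) and 1 from cells labelled Hikeshi conditional knockout (cKO). Hikeshi carries HSP70 chaperones into the nucleus. The series asks, by its title, how its loss affects proliferation and differentiation of these cells. The age of the mice, the Cre driver, the part of the gene deleted and any pooling of animals are not given in the labels used here.

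KLF proteins carry zinc fingers at their C-terminal end that bind GC-rich DNA, the GC box and the GT box (CACCC), and they differ in the N-terminal part that recruits cofactors. KLF2, KLF4, KLF6 and KLF7 belong to a class that mostly activates transcription and works with the acetyltransferases p300 and CBP. KLF3 binds the CtBP co-repressors, KLF9, KLF10, KLF13 and KLF16 bind the SIN3 co-repressor, and KLF15 stands outside these classes. In the nervous system KLF4 and KLF9 are known to restrain axon growth and KLF6 and KLF7 to promote it, and KLF9 is a thyroid hormone and glucocorticoid response gene.

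The libraries held 18912683 reads (cKO) and 18839079 reads (WT). Hikeshi itself had 640 reads in the cKO-labelled library against 718 in the WT-labelled library, a ratio of 0.888 (95% counting interval 0.797 to 0.989), and counts over a whole gene do not check a deletion of part of it. The genotype is therefore taken from the labels. The Y-linked genes Eif2s3y, Ddx3y, Kdm5d and Uty had 305 to 1265 reads in the cKO-labelled library and 0 or 1 in the other, so Y-linked expression and the genotype labels cannot be told apart in anything below. With 1 library per group there is no test. The intervals compare these libraries only and cover counting error at most, and whether either library came from 1 animal or several is not stated.

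Of the 10 KLF genes, 2 were at least 1.5-fold higher in the cKO-labelled library (Klf4 and Klf6) and 1 at least 1.5-fold lower (Klf10). Among the 12618 genes that reached 1 CPM (reads per 1000000 reads counted) in a library, 4.22% were 1.5-fold higher and 10.2% 1.5-fold lower by the same measure, the log2 difference of CPM with 1 CPM added. None of these 10 genes was 2-fold apart on that scale, against 1.25% of all genes in the higher and 3.85% in the lower direction. The other 7 lay within 1.5-fold, as did 85.6% of all genes kept. By sign, 8 of the 10 lay above 0 and 2 below, and the share of all genes kept above 0 was not counted. Among those above 0, the counting intervals of Klf2, Klf3 and Klf7 held 1. Klf2 reached 1 CPM in the cKO-labelled library only (1.16 against 0.584 CPM). The median difference of the 10 genes was 0.35 on the log2 scale, and that of all genes kept was -0.02. The KLF median lies between the values of Klf16 (0.247) and Klf2 (0.450), so it rests in part on Klf2. Klf13 and Klf15, at log2 differences of 0.57 and 0.52, lay just inside the 1.5-fold limit of 0.585.

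**Figure D1:**
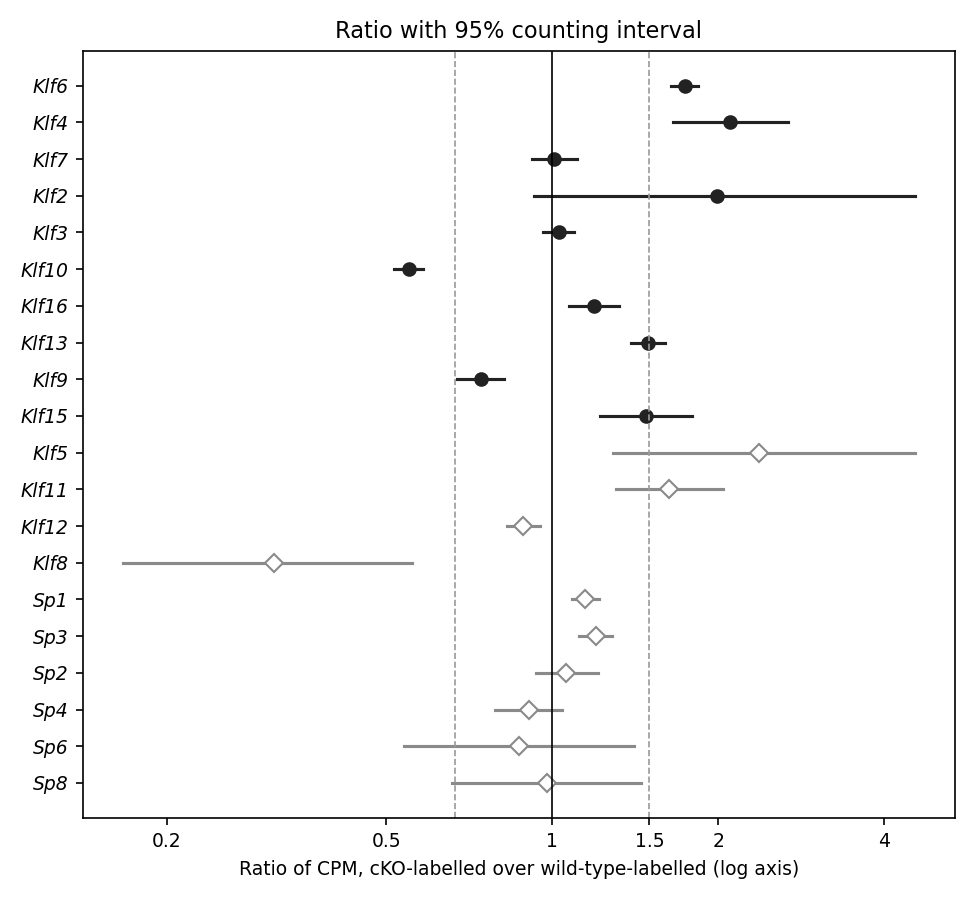
Ratio of CPM, cKO-labelled library over WT-labelled library (log axis), with the 95% counting interval, for the 10 KLF genes (filled circles) and for the other KLF and SP genes that passed the filter (open diamonds); dashed lines mark 1.5-fold. Of the 10 KLF genes, Klf4 (2.10), Klf2 (1.99) and Klf6 (1.74) lie to the right of the dashed lines and Klf10 (0.549) to the left. Klf2 lies within 1.5-fold once 1 CPM is added, and its interval of 0.926 to 4.55 holds 1.

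Levels between genes were read from the deposited TPM, which is scaled by transcript length. In the WT-labelled library, Klf10 was the highest KLF gene at 92.6 TPM, followed by Klf3 at 45.9 and Klf6 at 41.4 TPM. In the cKO-labelled library the order of these genes differed, with Klf6 at 72.3, Klf10 at 51.0 and Klf3 at 48.99 TPM. Klf6 thus had 0.447 times the TPM of Klf10 in one library and 1.42 times in the other. Klf16, Klf13 and Klf9 came next, at 28.8, 27.2 and 15.0 TPM (cKO) and at 24.1, 18.2 and 20.2 TPM (WT), so Klf13 and Klf9 also changed places. Klf7, Klf15, Klf4 and Klf2 held the last 4 places in both libraries, in that order. In the cKO-labelled library, Klf6 lay above 81.3% of the genes kept by TPM, and Klf2 above 8.27%.

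**Figure D2:**
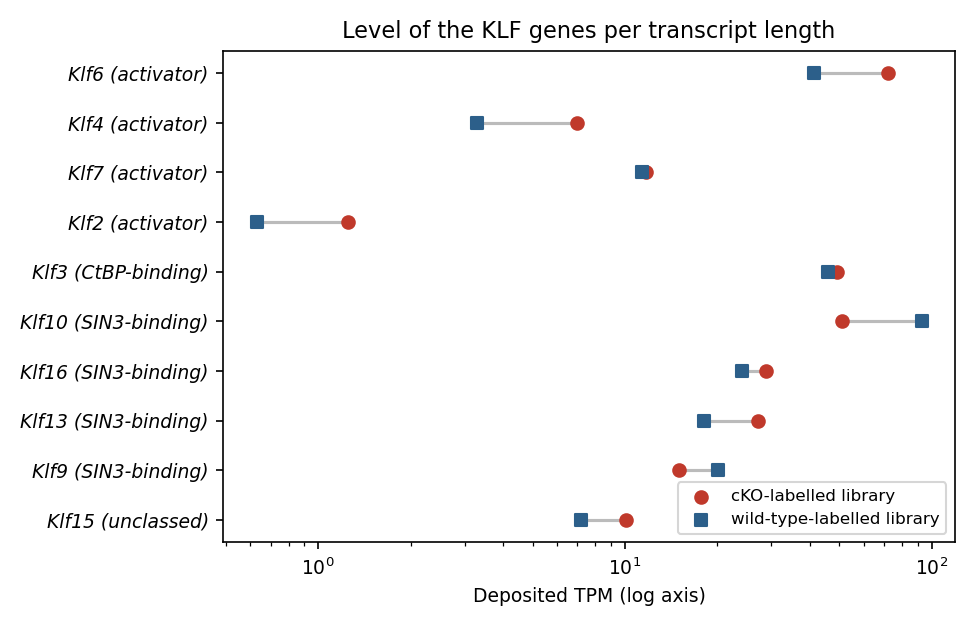
Deposited TPM (log axis) of each KLF gene in the cKO-labelled library (red circles) and the WT-labelled library (blue squares), grouped by cofactor class, with a grey line joining the libraries. Klf10 has 92.6 (WT) and 51.0 TPM (cKO), and Klf6 has 41.4 and 72.3 TPM.

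Of the activator class, Klf6 and Klf4 were higher in the cKO-labelled library. Klf6 (Entrez 23849, chromosome 13, 5861489 to 5870393, plus strand, GRCm38.p6) is an early response gene of injury and growth signals. It had 3285 reads in the cKO-labelled library against 1882 in the WT-labelled library, or 174 against 99.9 CPM. The ratio was 1.74 (1.64 to 1.84), and 2.09% of all genes kept were as far in that direction. Among the 3163 genes within 2-fold of its mean level the share was 1.08%.

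Klf4 (Entrez 16600, chromosome 4, 55527137 to 55532475, minus strand) is a factor of epithelial differentiation and of reprogramming to pluripotency. Its reads numbered 221 in the cKO-labelled library against 105 in the WT-labelled library, or 11.7 against 5.57 CPM. The ratio of 2.10 (1.66 to 2.67) was the largest of the 10 genes, and 1.40% of genes kept were as far in that direction. Among the 2664 genes within 2-fold of its mean level the share was 2.065%. By level Klf4 was the ninth of the 10 KLF genes in both libraries, at 6.95 (cKO) and 3.30 TPM (WT). Its precision is thus lower than that of Klf6.

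The promoters of these genes are shown because they are the pair that was at least 1.5-fold higher. Each is printed from 250 bases before the RefSeq start to 10 after it (chr4:55532466-55532725, minus strand, for Klf4 and chr13:5861239-5861498, plus strand, for Klf6, GRCm38.p6). Capitals mark the GC box GGGCGG and the E-box CACGTG on either strand.
Klf4: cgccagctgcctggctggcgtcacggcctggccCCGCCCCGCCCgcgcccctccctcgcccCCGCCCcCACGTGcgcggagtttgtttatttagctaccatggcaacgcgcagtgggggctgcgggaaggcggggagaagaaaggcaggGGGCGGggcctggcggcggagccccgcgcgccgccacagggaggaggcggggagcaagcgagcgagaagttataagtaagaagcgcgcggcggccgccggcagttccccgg
Klf6: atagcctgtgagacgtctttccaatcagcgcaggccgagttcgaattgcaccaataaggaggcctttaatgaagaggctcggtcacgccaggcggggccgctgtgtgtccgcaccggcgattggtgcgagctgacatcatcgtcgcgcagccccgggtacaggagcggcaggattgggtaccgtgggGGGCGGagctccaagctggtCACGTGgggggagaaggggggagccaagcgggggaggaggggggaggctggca
Motifs were counted in windows of 300 bases, from 250 before to 50 after the start. Klf4 had 4 matches to the GC box and Klf6 had 1. The CACCC core of the GT box was found in neither of these windows, while 57.5% of 32851 mouse promoters of the same length held it. Each had 1 E-box, which 7.15% of all promoters held, at -182 to -177 in Klf4 and at -43 to -38 in Klf6, counting the start base as 0. Klf6 also had 4 matches to CCAAT, the NF-Y box, which Klf4 lacked in this window.

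The other activator genes differed less or were measured less well. Klf7 (Entrez 93691, chromosome 1, 64029448 to 64122345, minus strand), a factor of sensory and cortical neurons, had 905 reads (cKO) and 893 (WT), a ratio of 1.01 (0.919 to 1.11). Of its exon bases in GENCODE 39.4% are overlapped by 2 antisense genes that are not in the table, and without a stated strand setting their reads cannot be separated from those of Klf7. Klf2 (Entrez 16598, chromosome 8, 72319062 to 72321654, plus strand), a flow-responsive factor of endothelial cells that is also made by lymphocytes and macrophages, was near the limit of detection. It had 22 reads (exact Poisson interval 13.8 to 33.3) in the cKO-labelled library against 11 (5.49 to 19.7) in the WT-labelled library. The ratio of 1.99 had an interval of 0.926 to 4.55, so no difference was detectable at this depth.

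Klf2 and Klf4 are known targets of the MEK5, ERK5 and MEF2 pathway. The Klf2 promoter (chr8:72318812-72319071, plus strand, GRCm38.p6) is shown because it was the only 1 of the 8 KLF promoters in the RefSeq table with a match to the MEF2 box, which 0.557% of all promoters held. Capitals mark the MEF2 box, at -118 to -109, along with 2 GC boxes and 1 CACCC core on the minus strand.
Klf2: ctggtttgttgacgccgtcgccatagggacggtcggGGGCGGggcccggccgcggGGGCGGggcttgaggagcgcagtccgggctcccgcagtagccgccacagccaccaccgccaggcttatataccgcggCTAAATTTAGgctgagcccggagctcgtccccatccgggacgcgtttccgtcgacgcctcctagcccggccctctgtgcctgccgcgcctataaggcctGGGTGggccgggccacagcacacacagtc
The genes of that pathway had 2 of 10 members past 1.5-fold upward in the cKO-labelled library and 1 downward, with a median of 0.13. Mef2c, with 884 reads against 572, was 1.54-fold higher (1.38 to 1.71) and the histone deacetylase gene Hdac7, a repressor of MEF2 factors, 1.69-fold (1.52 to 1.89). Mef2a had 1821 against 1217 reads, a ratio of 1.49 (1.39 to 1.60). The kinase genes Mapk7 (ERK5) and Map2k5 (MEK5) had ratios of 0.968 (0.902 to 1.04) and 0.821 (0.735 to 0.917). Mef2b was low, at 17 against 38 reads.

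Klf3 (Entrez 16599, chromosome 5, 64803521 to 64832901, plus strand), the CtBP-binding repressor of the set, had 1896 reads (cKO) and 1837 (WT) and a ratio of 1.03 (0.964 to 1.10). Its deposited counts were not whole, at 1895.81 and 1836.68, while those of the other 9 genes were, and 3.59% of its exon bases overlap an antisense gene that is not in the table. By deposited TPM the ratio was 1.07. The CtBP genes Ctbp1 and Ctbp2 had ratios of 0.986 (0.955 to 1.02) and 1.18 (1.09 to 1.28).

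The SIN3-binding genes went in both directions. Klf10 (Entrez 21847, chromosome 15, 38291464 to 38300711, minus strand), first described as a TGF-beta inducible early gene, had 1634 reads in the cKO-labelled library against 2964 in the WT-labelled library, or 86.4 against 157 CPM. It was 1.82-fold lower in the cKO-labelled library (1.71 to 1.94), and 5.21% of all genes kept were as far in the lower direction. Among the 3473 genes within 2-fold of its level the share was 1.99%. Klf9 (Entrez 16601, chromosome 19, 23141226 to 23168129, plus strand) had 729 against 979 reads and was 1.35-fold lower (1.22 to 1.49), where 15.4% of genes kept were as far. Klf10 and Klf9 were the 2 KLF genes below 0.

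Klf13 (Entrez 50794, chromosome 7, 63886351 to 63938915, minus strand), a factor studied in T cells and heart, lay on the other side. Its 1926 reads in the cKO-labelled library against 1286 in the WT-labelled library gave 102 and 68.3 CPM and a ratio of 1.49 (1.39 to 1.60). Klf16 (Entrez 118445, chromosome 10, 80567121 to 80577296, minus strand), a regulator of dopamine receptor genes, had 785 against 656 reads and a ratio of 1.19 (1.07 to 1.32). Both intervals lay above 1, and Klf16 was exceeded in that direction by 18.2% of genes kept.

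The Klf9 promoter (chr19:23140976-23141235, plus strand, GRCm38.p6) is shown as that of a KLF gene that was lower. It was the only 1 of the 8 KLF promoters in the table without a match to GGGCGG, a motif that 35.7% of all promoters held. Capitals mark its single CACCC core.
Klf9: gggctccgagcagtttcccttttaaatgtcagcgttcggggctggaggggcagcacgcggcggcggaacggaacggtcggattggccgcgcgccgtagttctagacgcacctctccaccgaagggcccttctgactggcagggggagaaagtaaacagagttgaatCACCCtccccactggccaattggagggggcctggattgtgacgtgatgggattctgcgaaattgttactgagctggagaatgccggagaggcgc
The promoters of Klf10 and Klf16 were not used here.

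Klf15 (Entrez 66277, chromosome 6, 90461043 to 90491803, plus strand), a glucocorticoid-induced and clock-driven regulator of amino acid and lipid metabolism, had 273 reads in the cKO-labelled library against 184 in the WT-labelled library. That gave 14.4 against 9.77 CPM and a ratio of 1.48 (1.22 to 1.79). The deposited TPM of 10.1 and 7.19 gave a smaller ratio of 1.40. The transcript length implied by its deposited FPKM was 6.08% longer in the cKO-labelled library, the largest such difference of the 10 genes, and RefSeq lists 9 transcript models for it. The promoter at its annotated main start (chr6:90462326-90462585, plus strand, GRCm38.p6) is shown for its 3 E-boxes, the element bound by CLOCK and BMAL1. Capitals mark these, 1 GC box and 1 CACCC core on the minus strand.
Klf15: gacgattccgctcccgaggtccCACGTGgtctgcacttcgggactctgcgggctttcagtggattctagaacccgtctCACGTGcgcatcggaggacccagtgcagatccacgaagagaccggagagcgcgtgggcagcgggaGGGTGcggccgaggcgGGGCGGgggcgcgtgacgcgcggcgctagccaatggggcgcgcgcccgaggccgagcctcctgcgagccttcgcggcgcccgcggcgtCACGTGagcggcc
Among the KLF promoters in the table Klf4 and Klf6 had 1 E-box each and the others had none.

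**Figure D3:**
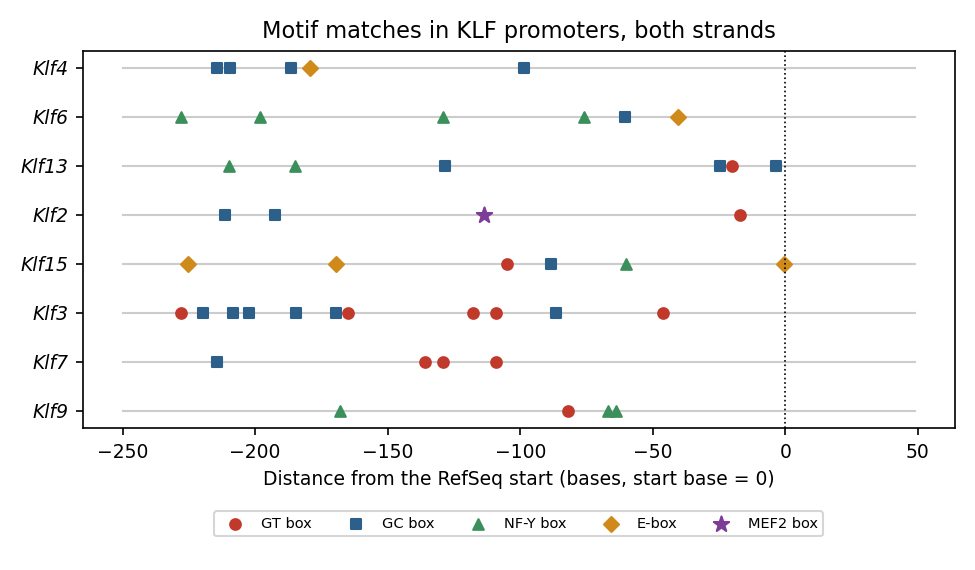
Position of motif matches on both strands in the 8 KLF promoters of the RefSeq table, in bases from the start base (0), over the 250 bases before and 50 after it. Klf15 holds 3 E-boxes, Klf2 the single MEF2 box, and Klf9 no GC box.

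Over the KLF promoters as a set, 7 of 8 had a GC box and 6 of 8 a CACCC core, against 35.7% and 57.5% of all promoters. GC content ran from 58.3% in Klf7 to 76.7% in Klf3, and the median of all promoters was 52.7%. The heat shock element GAANNTTC, the cAMP response element TGACGTCA, the TATAAA box and the CArG box of SRF had 0 matches in the 8 windows. All promoters held these at 7.86%, 1.79%, 13.6% and 1.63%.

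Summed over the 10 genes, KLF reads numbered 11676 in the cKO-labelled library against 10797 in the WT-labelled library, a ratio of 1.08 (1.05 to 1.11). This near balance joined opposite parts. The 4 activator genes together were 1.53-fold higher (1.46 to 1.60), with 4433 against 2891 reads, of which Klf6 gave most. The 4 SIN3-binding genes together were 1.16-fold lower (1.12 to 1.21), with 5074 against 5885 reads, but without Klf10 the other 3 summed to a ratio of 1.17 (1.12 to 1.23). In TPM the activators made up 33.7% of the KLF sum in the cKO-labelled library against 21.4% in the WT-labelled library. Klf10 alone made up 18.7% and 34.98%, and Klf6 26.4% and 15.6%.

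Grouped by their known part in axon growth, Klf6 and Klf7 summed to a ratio of 1.504 (1.43 to 1.58), nearly all of the difference coming from Klf6. Klf4 and Klf9, which went in opposite directions, summed to a ratio of 0.873 (0.799 to 0.953).

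**Figure D4:**
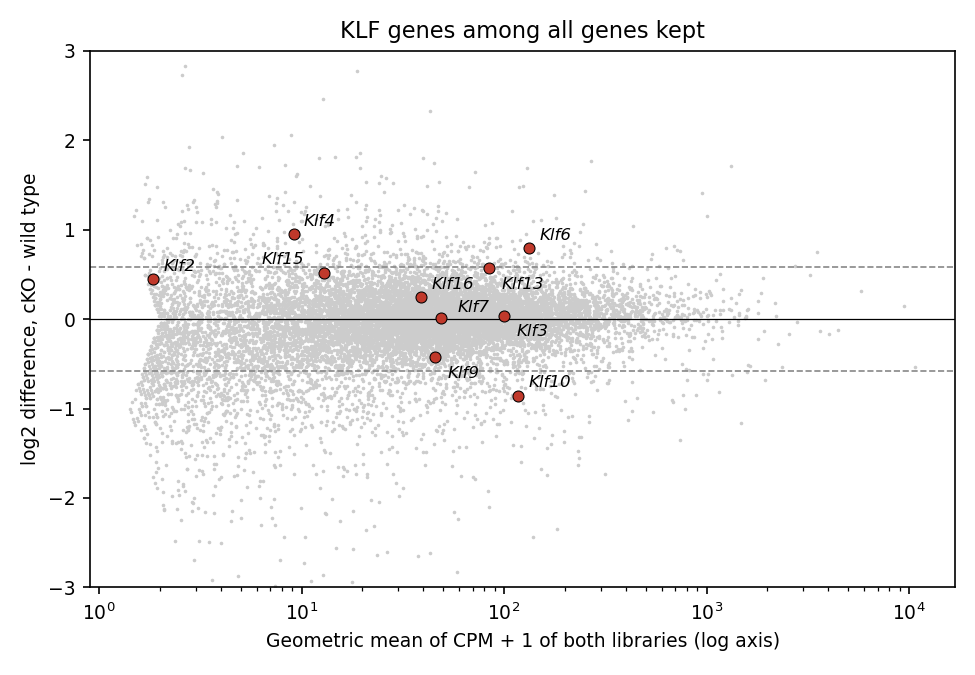
Log2 difference (cKO minus WT, 1 CPM added) against the geometric mean of CPM plus 1 in both libraries (log axis) for all genes kept (grey) and the 10 KLF genes (red); dashed lines mark 1.5-fold, and 27 genes lie beyond the axis limit of 3. Klf4 and Klf6 lie above the upper line, Klf10 below the lower, and Klf13 just under the upper line.

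Of the other KLF genes 6 had a row and 4 passed the filter, with 2 past 1.5-fold upward and 1 downward. Among all genes kept, 4.22% were called upward and 10.2% downward. Klf5 reached 1 CPM in the cKO-labelled library only (2.01 against 0.849 CPM). Klf8 reached it in the WT-labelled library only (0.846 CPM in cKO against 2.71 in WT). These genes thus passed the filter only through the library where they were higher. Klf5, an activator of proliferating epithelia, had 38 against 16 reads and a ratio of 2.37 (1.29 to 4.55). Klf11, the closest relative of Klf10, had 214 against 131 reads and was 1.63-fold higher (1.30 to 2.04), opposite to Klf10. Klf8, a CtBP-binding relative of Klf3, had 16 against 51 reads and was 3.20-fold lower (1.79 to 6.01). With 1 CPM added its log2 difference was -1.006, just past 2-fold. Klf12, of the same class, was the most read of these, at 1578 against 1773 reads and a ratio of 0.887 (0.828 to 0.949), and its deposited counts were not whole, at 1577.52 and 1772.68. Klf1 (0 and 3 reads) and Klf14 (1 in each) were at or under a floor of 3 reads. Summing each class with these genes left the activators at a ratio of 1.53 (1.46 to 1.60) and the SIN3-binding genes at 0.876 (0.844 to 0.909). The ratio of summed reads of the CtBP-binding genes Klf3, Klf8 and Klf12 had an interval of 0.906 to 0.995, below 1. By summed deposited TPM the ratio of this class was 1.016, so its direction depended on the measure. Klf3 alone had a ratio of reads of 1.03.

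The SP genes, whose zinc fingers bind the same GC boxes, were within 1.5-fold in all 6 cases that passed the filter (median 0.03). Sp1 and Sp3, the widely made members, had 2675 against 2321 and 1742 against 1449 reads, ratios of 1.15 (1.09 to 1.21) and 1.20 (1.12 to 1.28). Sp2, Sp4, Sp6 and Sp8 had intervals that held 1.

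Of the 17 cofactors of KLF proteins, 1 was past 1.5-fold upward and 0 downward (median 0.14), and 16 lay within 1.5-fold, where 85.6% of all genes kept lay. The higher one was Fhl3, a LIM protein that binds KLF3, at 446 against 261 reads (1.70-fold, 1.46 to 1.99). Sin3a and Sin3b had ratios of 1.07 (0.990 to 1.17) and 0.978 (0.925 to 1.03), and the acetyltransferase gene Ep300 1.10 (1.02 to 1.19). Among 10 ubiquitin ligase genes of KLF turnover, Fbxo32, a muscle atrophy ligase reported to act on KLF4, was 3.02-fold higher (2.61 to 3.50) and Vhl, the ligase of the hypoxia factor HIF, 1.86-fold lower (1.73 to 1.99).

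Klf2, Klf4, Klf6 and Klf10 are known as immediate early genes, and a list with other such genes had more members lower than higher. Of 17 genes of SRF, its partners and the early response, 1 was past 1.5-fold upward in the cKO-labelled library and 4 downward (median -0.09). Among all genes kept, 4.22% were called upward and 10.2% downward. By sign 6 of the 17 lay above 0 and 11 below. Atf3 was 1.71-fold higher (1.42 to 2.07), like Klf4 and Klf6. Egr1, with 1261 against 3361 reads, was 2.68-fold lower (2.51 to 2.86) and Egr3 2.39-fold lower (1.86 to 3.09), like Klf10. Nr4a1 and Ier2, also past 1.5-fold downward, had ratios of 0.451 (0.385 to 0.526) and 0.645 (0.556 to 0.748). Srf itself had a ratio of 0.953 (0.861 to 1.06).

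Of the TGF-beta genes, named with Klf10 and Klf11, 3 of 12 were past 1.5-fold upward and 0 downward (median 0.21). The ligand gene Tgfb2 was 2.09-fold higher (1.94 to 2.25) and its receptor gene Tgfbr2 2.23-fold (1.63 to 3.08). Smad2, Smad3 and Smad4 had ratios of 1.28 (1.19 to 1.37), 0.832 (0.784 to 0.884) and 1.05 (0.994 to 1.11). Klf10 was thus lower in the library where Tgfb2 and Tgfbr2 were higher.

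Hormone and clock genes are named here with Klf9 and Klf15, which respond to them. Of 14 glucocorticoid genes 1 was past 1.5-fold upward and 4 downward (median -0.03), while 4.22% of all genes kept were called upward and 10.2% downward. By sign 7 of the 14 lay above 0 and 7 below. The phosphatase gene Dusp1 was 1.73-fold higher (1.46 to 2.05), while Glul was lower by 2.20-fold (2.13 to 2.27) and Ddit4 by 2.03-fold (1.93 to 2.13). The glucocorticoid receptor gene Nr3c1 had a ratio of 1.12 (1.04 to 1.22). Of 8 thyroid hormone genes 0 were 1.5-fold higher and 3 lower (median -0.11), among them the receptor genes Thrb, 1.96-fold lower (1.56 to 2.46), and Thra, 1.52-fold lower (1.45 to 1.59), in the same direction as Klf9.

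Of 18 clock genes 0 were 1.5-fold higher and 4 lower (median -0.16), where all genes kept were also more often called lower (10.2%) than higher (4.22%). Ciart, with 271 against 538 reads, was 1.99-fold lower (1.72 to 2.31) and Bhlhe41 1.95-fold lower (1.76 to 2.16), both being repressors of CLOCK and BMAL1. Clock was 1.36-fold higher (1.25 to 1.48) and Arntl, which encodes BMAL1, 1.17-fold (1.06 to 1.29), in the same direction as Klf15. By sign 7 of the 18 lay above 0 and 11 below. Those below included Per3, Bhlhe40, Dbp and Tef, with ratios of 0.567, 0.544, 0.766 and 0.793. Any link of these genes to Klf15 was not tested.

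Genes reported as KLF targets in other cells had 2 of 15 past 1.5-fold upward and 2 downward (median 0.12). Cdkn1a, the p21 gene that KLF4 and KLF6 are known to induce, had 12637 against 7905 reads and was 1.59-fold higher (1.55 to 1.64). Gap43, a growth cone gene, was 1.97-fold higher (1.88 to 2.05). Ntrk2, the receptor gene of BDNF, was 1.63-fold lower (1.58 to 1.68). Prodh, a proline oxidase gene reported downstream of KLF15, had 29 against 77 reads and was 2.67-fold lower (1.72 to 4.24) while Klf15 had a ratio of 1.48. Of the partners of KLF4 in reprogramming, Sox2 (0.993, 0.962 to 1.02) and Myc (0.992, 0.939 to 1.05) had ratios near 1, and the naive pluripotency gene Esrrb was 3.05-fold higher (2.61 to 3.58). Tfcp2l1 had 5 against 32 reads. Nanog had 0 against 2 reads.

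**Figure D5:**
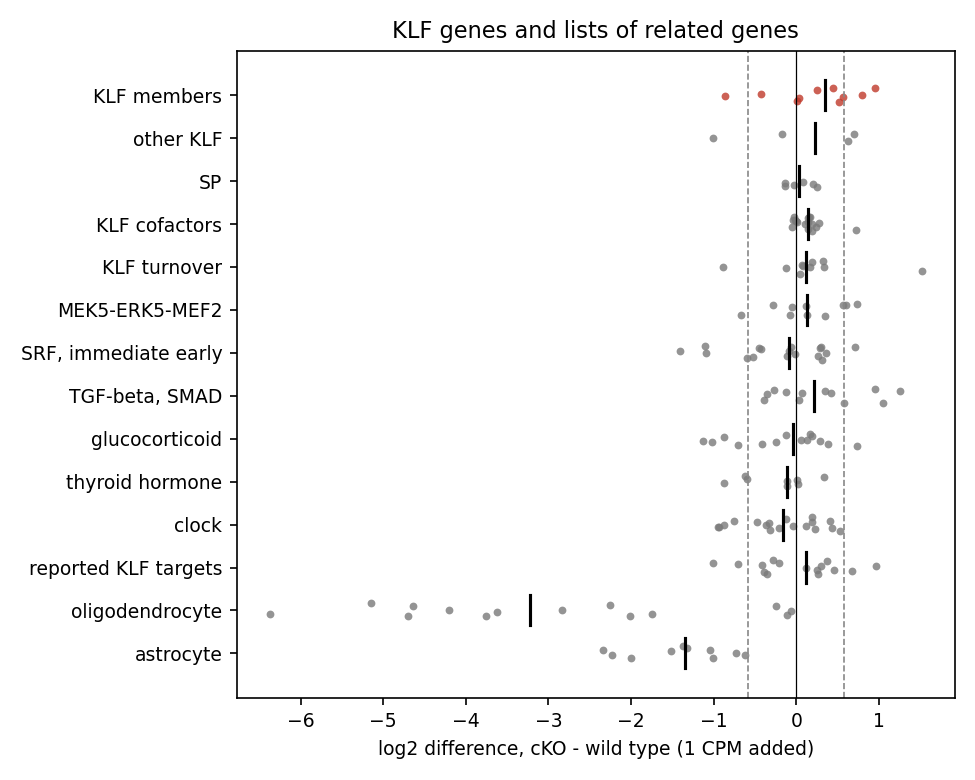
Log2 difference (cKO minus WT, 1 CPM added) of the 10 KLF genes (red) and of the genes kept from each list (grey), with the median of each as a black bar and 1.5-fold as dashed lines. The KLF median is 0.35 and rests in part on the low gene Klf2. The oligodendrocyte and astrocyte lists have medians of -3.23 and -1.35.

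Markers of the oligodendrocyte lineage, precursor genes among them, and of astrocytes moved with the labels as well. Of 14 oligodendrocyte lineage markers kept, 11 were past 1.5-fold downward in the cKO-labelled library and 0 upward, with summed levels of 2528 (cKO) and 3980 CPM (WT). Olig1 and Olig2 carried much of these sums, and without them, a choice made after seeing the data, the markers summed to 339.5 (cKO) and 1664 CPM (WT). Mobp was at 0 in the cKO-labelled library. All 10 astrocyte markers were lower, summing to 2460 against 4843 CPM. Slc1a3 gave 1080 (cKO) and 1661 CPM (WT) of these sums and is also in the list of stem and radial glia markers. In bulk RNA fewer cells of a type and less RNA per cell cannot be told apart, and the part of these markers in the KLF values was not tested. Endothelial and microglia markers, of cell types that make Klf2 and Klf4, were low in both libraries. The 6 endothelial markers in the table summed to 8.78 (cKO) and 9.66 CPM (WT), and the 6 microglia markers to 5.13 and 3.34 CPM, of which Cd68 gave 4.81 and 2.97 CPM. Cx3cr1 and Csf1r were at 0 in the cKO-labelled library, and Tmem119 and Itgam at 0 in the WT-labelled library. Pericyte markers summed to 226 (cKO) and 285 CPM (WT), with 0 of 6 higher and 3 lower, and Lum was at 0 in the WT-labelled library. Most of that sum came from Cspg4, which is also an oligodendrocyte precursor marker, and the others, a sum also chosen after seeing the data, came to 27.0 (cKO) and 48.3 CPM (WT). Of 8 neuronal markers 1 was higher and 2 lower, with sums of 591 and 722 CPM. Stem and radial glia markers, which the labels' cell type should show, summed to 10840 (cKO) and 8344 CPM (WT). Past 1.5-fold, 2 of 12 were higher and 4 lower, and by sign 4 lay above 0 and 8 below (median -0.16). The 2 higher genes, Vim (4578 against 2716 CPM) and Tnc (2402 against 731 CPM), carried much of these sums.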

How the data were processed

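Total RNA was extracted on columns and made into libraries by standard Illumina methods, per the labels' protocols. The submitters' processing notes name GRCm38.p6 as the build, and the sources used here do not state the aligner, counter, annotation or strand setting. Per the file headers, the authors deposited an estimated count of reads per gene, TPM, FPKM and a normalized read count, a signal that is the rounded-up count times 1 constant per library.

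These counts were rounded to whole numbers and divided by their totals (CPM). Genes at 1 CPM in at least 1 library were kept, and log2 differences add 1 CPM, which understates low genes. Ratios are of CPM without it, with 95% exact conditional binomial (Clopper-Pearson) intervals. PCR copies were not marked by molecular identifiers, so the intervals cover counting error only. Coordinates and promoters came from RefSeq (GRCm38.p6; 8 of 10 genes matched a promoter), and exon overlaps and GC from GENCODE M21. Motifs were searched on both strands. edgeR 4.0.16 (R 4.3.3) gave TMM factors only. Python 3.11.15, scipy 1.17.1 and statsmodels 0.14.6 did the rest. The intervals were also run on simulated Poisson counts without added spread between libraries, which checks the calculation and not its fit to these data.

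The KLF genes and the 19 lists were chosen with earlier results of these data known. Named were the KLF and SP genes and, from each list, its regulators and up to 2 genes per direction at least 1.5-fold apart. Not every gene that the rule takes is reported here. With 1 library per genotype no likeness of patterns over samples could be measured.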

Additional observations from a re-analysis of the deposited data

How the results depend on the processing

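Each KLF ratio was recomputed in 6 other ways: TMM scaling, median-of-ratios scaling, the deposited TPM, FPKM and normalized read count, and removal of the trend on GC content. All 60 values stayed inside the counting interval of the ratio given above. Klf4 ran from 2.09 to 2.21, Klf6 from 1.66 to 1.77 and Klf10 from 0.547 to 0.558. Klf4, Klf6 and Klf10 passed 1.5-fold under each of the 10 settings of scaling, added value and filter. The number at least 1.5-fold higher was 4 with the GC trend removed, when Klf13 and Klf15 joined. TMM scaling added Klf13, and 0.5 CPM added in place of 1 brought in Klf2. The number at least 2-fold higher was 1 with the GC trend removed and 1 with 0.5 CPM added. The summed ratio was 1.03 by TPM, 0.938 leaving out Klf6, 1.11 leaving out Klf9, 1.28 leaving out Klf10 and 1.02 leaving out Klf13, so its direction rests on Klf6. For the gene lists, TMM or median-of-ratios scaling or no filter kept all 114 counts within 1.5 times. No paired analysis was possible because each genotype has 1 library, and for the same reason no library could be left out. Depth limits Klf2 most, and then Klf4 and Klf15.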
